A study of Mus musculus with 2 samples.

Results

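The chromatin of 9 genes that glucocorticoids are widely known to induce was examined in the mouse urinary bladder: Fkbp5, Tsc22d3, Zbtb16, Sgk1, Errfi1, Pdk4, Cebpb, Cebpd and Dusp1. They are 9 of 21938 protein-coding genes of the annotation. They were chosen by name as classical targets of the hormone, and the rule uses no measured value, although earlier results of these data were known when they were chosen. Each locus was the gene body with 50 kb on either side, and the 9 loci together spanned 1469 kb.

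DNase-seq marks open chromatin by the places where the nuclease DNase I cuts nuclear DNA. The tissue was whole urinary bladder, taken at 14 days of age from males of the strain B6CASTF1/J. These mice are F1 hybrids of the strains C57BL/6J and CAST/EiJ. Both libraries belonged to 1 group, bladder. For replicate 1 the labels speak of a male in the singular. Replicate 2 pooled 3 males. No animal is labelled as treated, and the labels give no hormone level, so the data show a single state of unknown hormone exposure and hold no comparison between conditions. Values are means ± SD of the 2 replicates, with no test. In a whole tissue, a weak peak in all cells and a strong peak in few cells cannot be told apart.

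The glucocorticoid receptor, encoded by Nr3c1, is a nuclear receptor that waits in the cytoplasm in a complex with the chaperone Hsp90. Hormone releases it to the nucleus, where it binds as a dimer to a palindrome, a short motif and its reverse complement across a small gap, and raises or lowers transcription of genes nearby. The mineralocorticoid, androgen and progesterone receptors bind the same palindrome, so that a match in the sequence names no single receptor. In many tissues most receptor binding falls in chromatin that was open before the hormone came.

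A region is a stretch where peaks were joined at an overlap of at least 1 bp, and it is shared where both replicates had a peak in it. The palindrome searched for was GNACANNNTGTNC, which fixes 8 bases. Its full form is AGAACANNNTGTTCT, which fixes 12 bases, and mismatches below are counted against those 12. Both forms read the same on either strand, so 1 search covers both strands. The full palindrome occurred 3 times in the 9 loci, in Fkbp5 and Sgk1 alone, and 2 of the 3 lay in shared regions. These 3 and the closest match in an open part of Zbtb16 are shown because the results below turn on them, each on the plus strand of mm10 with 7 bases on either side and the palindrome in capitals. All letters are those of the reference strain C57BL/6J, and the CAST/EiJ allele of these animals can differ from them.

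Fkbp5 intron, open, chr17:28420321-28420335: agagcacAGAACACCCTGTTCTgaatgtg
Sgk1 upstream, open, chr10:21993701-21993715: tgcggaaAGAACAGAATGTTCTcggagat
Zbtb16 intron, open, 1 mismatch, chr9:48775824-48775838: gctgcagAGGACAGAATGTTCTctagagt
Fkbp5 intron, outside peaks, chr17:28442419-28442433: aaagcctAGAACAAGCTGTTCTcaaacaa

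The deposited signal of a peak is the authors' own value. It came in whole multiples of a smallest step, which was 0.00521 for replicate 1 and 0.00799 for replicate 2. Taking such a step as a single cut, the number of steps gives a Poisson 95% interval, which covers counting error only. Replicate 1 had the longer list, with 139821 peaks against 82225 in replicate 2, and its median signal over the 73164 shared regions was 1.28 against 0.975. That gap is a shift of 0.39 on the log2 scale, and log2 ratios between replicates are given after dividing each library by its own median. Means and SDs are those of the deposited signals, without that division. A small SD can therefore go with a log2 ratio away from 0. Over all shared regions the log2 ratio had an SD of 0.42. This spread pools weak and strong regions, and the spread among regions as strong as the promoters below is not given. The promoters of urothelial (6 of 6), smooth muscle (6 of 6) and stromal (4 of 4) marker genes were open, and those of hepatocyte genes (0 of 3), which a bladder should lack, were not. Endothelial (1 of 4), immune (0 of 4) and nerve or glial (0 of 3) markers were mostly without a shared promoter peak.

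All 9 genes had an open promoter, that is a shared peak no farther than 1 kb from the start of any of their transcripts, against 66.1 percent of protein-coding genes. The strongest promoter peak was taken for each gene. A gene with more annotated starts offers more places for such a peak. The number of starts ran from 1 at Cebpb to 14 at Fkbp5, and its effect on these comparisons was not tested. The median over the 9 genes was a signal of 7.51, against 4.61 over the 14500 open promoters of all protein-coding genes. The 9 genes spread from percentile 28.6 to percentile 91.4 of open promoters, so the set had no common level.

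Of the 9, Fkbp5 acts on the receptor itself and Tsc22d3 carries part of its anti-inflammatory effect. Fkbp5 encodes FKBP51, a cochaperone that joins the Hsp90 complex and lowers the receptor's affinity for hormone. Its promoter at chr17:28486081-28486320 had a signal of 11.2 in replicate 1 and 10.4 in replicate 2 (10.8 ± 0.53, SD, n = 2), which stood at percentile 90.4 of open promoters. Tsc22d3 encodes GILZ, a leucine zipper protein that restrains inflammatory transcription factors. Its strongest promoter peak, chrX:140543061-140543320, gave 2.43 and 2.50 (2.47 ± 0.050), at percentile 28.6. On the deposited signals the replicates lay close together at both genes, and these 2 genes sat near opposite ends of the set. After scaling, the log2 ratio of replicate 1 to replicate 2 was -0.29 at Fkbp5 and -0.43 at Tsc22d3. Tsc22d3 lies on the X chromosome, of which males carry a single copy. Its signal and percentile were not adjusted for copy number, and the effect of this on its rank was not tested.

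Sgk1, Errfi1 and Dusp1 act in kinase signalling. Sgk1, a kinase that raises sodium uptake in epithelia, had 12.3 and 10.0 at chr10:21994481-21994740 (11.2 ± 1.6), the highest mean of the 9, at percentile 91.4. The gap between Sgk1 and Fkbp5 was smaller than the SD of Sgk1, so their order is not resolved. Errfi1, which encodes an inhibitor of the epidermal growth factor receptor, had 9.67 and 9.11 at chr4:150854901-150855140 (9.39 ± 0.40, percentile 84.4). Dusp1, a phosphatase that switches off MAP kinases, had 7.66 and 7.50 at chr17:26508401-26508820 (7.58 ± 0.12, percentile 73.6). Both replicates placed Errfi1 below Fkbp5 and above Dusp1.

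Cebpb and Cebpd encode transcription factors of the C/EBP family, which act in differentiation and in the acute response to injury. Cebpd gave 7.27 and 7.75 at chr16:15887121-15887360 (7.51 ± 0.33, percentile 73.0), and could not be told apart from Dusp1. Cebpb gave 4.55 and 5.79 at chr2:167688841-167689100 (5.17 ± 0.88, percentile 54.9), the widest relative gap between replicates among the 9 promoters. Its log2 ratio of replicate 1 to replicate 2 was -0.74 after scaling. Pdk4, a kinase that blocks the entry of pyruvate into mitochondrial oxidation, had 4.37 and 4.21 at chr6:5496281-5496760 (4.29 ± 0.12, percentile 46.9). Zbtb16, the zinc finger repressor PLZF, had 3.95 and 4.12 at chr9:48836141-48836560 (4.03 ± 0.12, percentile 44.5). Both replicates placed Cebpb above Pdk4 and Pdk4 above Zbtb16. The Poisson intervals of Pdk4 and Zbtb16 overlapped in both replicates, so the order of these 2 is not resolved. Those of Cebpb (4.25 to 4.86) and Pdk4 (4.08 to 4.67) overlapped in replicate 1 and were apart in replicate 2 only.

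The log2 ratio of the 9 promoters had a median of -0.36 after division by the medians of shared regions, with each of the 9 below 0. On the deposited signals the median was 0.03, and after division by the medians of shared promoter regions it was -0.26. The sign of the median therefore turned with the scaling. Cebpb, Cebpd, Zbtb16 and Tsc22d3 stayed below 0 in each of these readings, and the other genes did not.

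**Figure D1:**
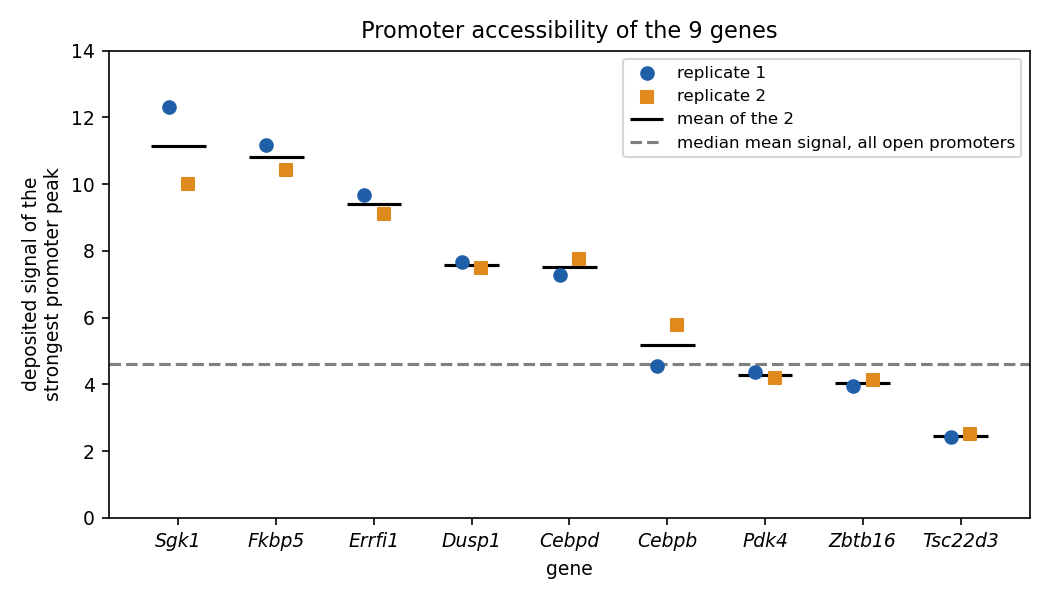
Deposited signal (y axis, the authors' units) of the strongest promoter peak of each of the 9 genes (x axis), with a point for each replicate and a bar for their mean; the dashed line is the median mean signal of all open promoters, 4.61. Sgk1 and Fkbp5 stand highest, at 11.2 and 10.8, and Pdk4, Zbtb16 and Tsc22d3 lie below the line in both replicates.

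The strongest promoter peaks of 2 of the 9 genes held the cyclic AMP response element TGACGTCA, the motif of CREB family factors, which many immediate early genes carry. They were Errfi1 and Dusp1. The motif reads the same on either strand and was found in 1.79% of 32851 RefSeq promoter windows of build GRCm38.p6, which run from 250 bases before a start to 50 after it. Counted in the same kind of window, it was in 2 of the 15 windows (13.3%) found for these genes. The motif is shown in capitals on the strand of the gene, 51 bases before the start for Errfi1 and 143 bases before it for Dusp1.

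Errfi1 promoter, chr4:150855009-150855036, plus strand: ctgcgggcgtTGACGTCAcgttgtcgct
Dusp1 promoter, chr17:26508598-26508625, minus strand: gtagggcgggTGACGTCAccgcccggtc

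The promoter windows matched 7 of the 9 genes. The table has no entry for Zbtb16 or Cebpd. None of the strongest promoter peaks held the relaxed palindrome, and the single promoter window that did belonged to another start of Sgk1, described below. A TATAAA was read on the strand of the gene in 4 of their 15 windows, those of Cebpb, Errfi1 and 2 starts of Sgk1, against 8.32% of all promoter windows. In the Cebpb window it began 21 bases after the start. In the Errfi1 window it began 28 bases before the start, downstream of the response element shown. Each such match describes letters in the reference and is no evidence of a bound factor.

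The 9 loci held 159 shared regions, from 7 at Pdk4 to 28 at Fkbp5. A further 108 regions had a peak in replicate 1 only and 10 in replicate 2 only. The median was 17 shared regions per gene, against 7 over all protein-coding genes measured the same way. Per 100 kb of locus the median was 12.4, against 4.92 over all genes. By the centre of the region, 55 of the 159 lay in promoters of any annotated gene, 52 in introns and 5 in exons of coding genes, 41 in intergenic sequence and 6 in introns of noncoding genes.

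Density did not follow promoter signal. Errfi1 had the densest locus, with 17 shared regions or 14.8 per 100 kb, at percentile 94.3 of all genes. Its locus also covers the genes Camta1, Park7 and Tnfrsf9, and 0 of the 17 regions had its centre inside Errfi1 without being a promoter region. Dusp1 (22 shared regions, 14.1 per 100 kb), Cebpb (14 regions, 13.8 per 100 kb) and Fkbp5 (28 regions, 12.8 per 100 kb) followed. Tsc22d3, whose promoter had the lowest signal of the 9 before any allowance for its X-linked copy number, had 20 shared regions. That was 12.4 per 100 kb, with no other protein-coding gene in its locus. Cebpd had 12 regions at 11.6 per 100 kb. Sgk1 and Zbtb16 reached 7.81 and 7.80 per 100 kb, and Pdk4 was lowest at 6.20, which still stood at percentile 59.7 of all genes.

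Outside promoters, the strongest region of all 9 loci lay in an intron of Zbtb16, at chr9:48740261-48740420, 96.0 kb downstream of its main promoter. Its signal was 10.7 in replicate 1 and 8.25 in replicate 2 (9.46 ± 1.7, SD, n = 2), at percentile 97.2 of all shared regions. Both replicates put this intronic region above the Zbtb16 promoter. Tsc22d3 had the same order. A region at chrX:140520281-140520500, in intergenic sequence 22.8 kb downstream of the main promoter, gave 6.22 and 4.28 (5.25 ± 1.4), above both promoter values.

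Cebpb had a region of 7.62 and 6.77 (7.20 ± 0.60) at chr2:167685221-167685420, in an intron of Tmem189 and 3.65 kb upstream of the Cebpb promoter peak, again above the promoter in both replicates. In the other loci the strongest region outside promoters was weaker than the gene's own promoter in both replicates. Fkbp5 had 4.71 and 3.60 (4.15 ± 0.79) at chr17:28528081-28528280, upstream of the gene. Sgk1 had 3.12 and 2.30 (2.71 ± 0.58) at chr10:22010241-22010420, and Dusp1 had 2.93 and 1.89 (2.41 ± 0.73) at chr17:26466761-26466940, both in intergenic sequence. These sat well below the 12.3 and 10.0 of the Sgk1 promoter and the 7.66 and 7.50 of the Dusp1 promoter.

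Errfi1 gave 1.93 and 2.76 (2.34 ± 0.59) at chr4:150898821-150899000, in an intron of Park7. Pdk4 gave 2.10 and 1.53 (1.81 ± 0.40) at chr6:5509781-5510020, 13.4 kb upstream of its promoter. Cebpd gave 1.87 and 0.807 (1.34 ± 0.75) at chr16:15838541-15838740, in an intron of Prkdc. After scaling, the replicates were farthest apart at these regions of Cebpd and Errfi1, with log2 ratios of 0.82 and -0.91. The promoter of Cebpd, at 7.27 and 7.75, was far above every region outside promoters of its locus, the reverse of Zbtb16 and Tsc22d3.

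**Figure D2:**
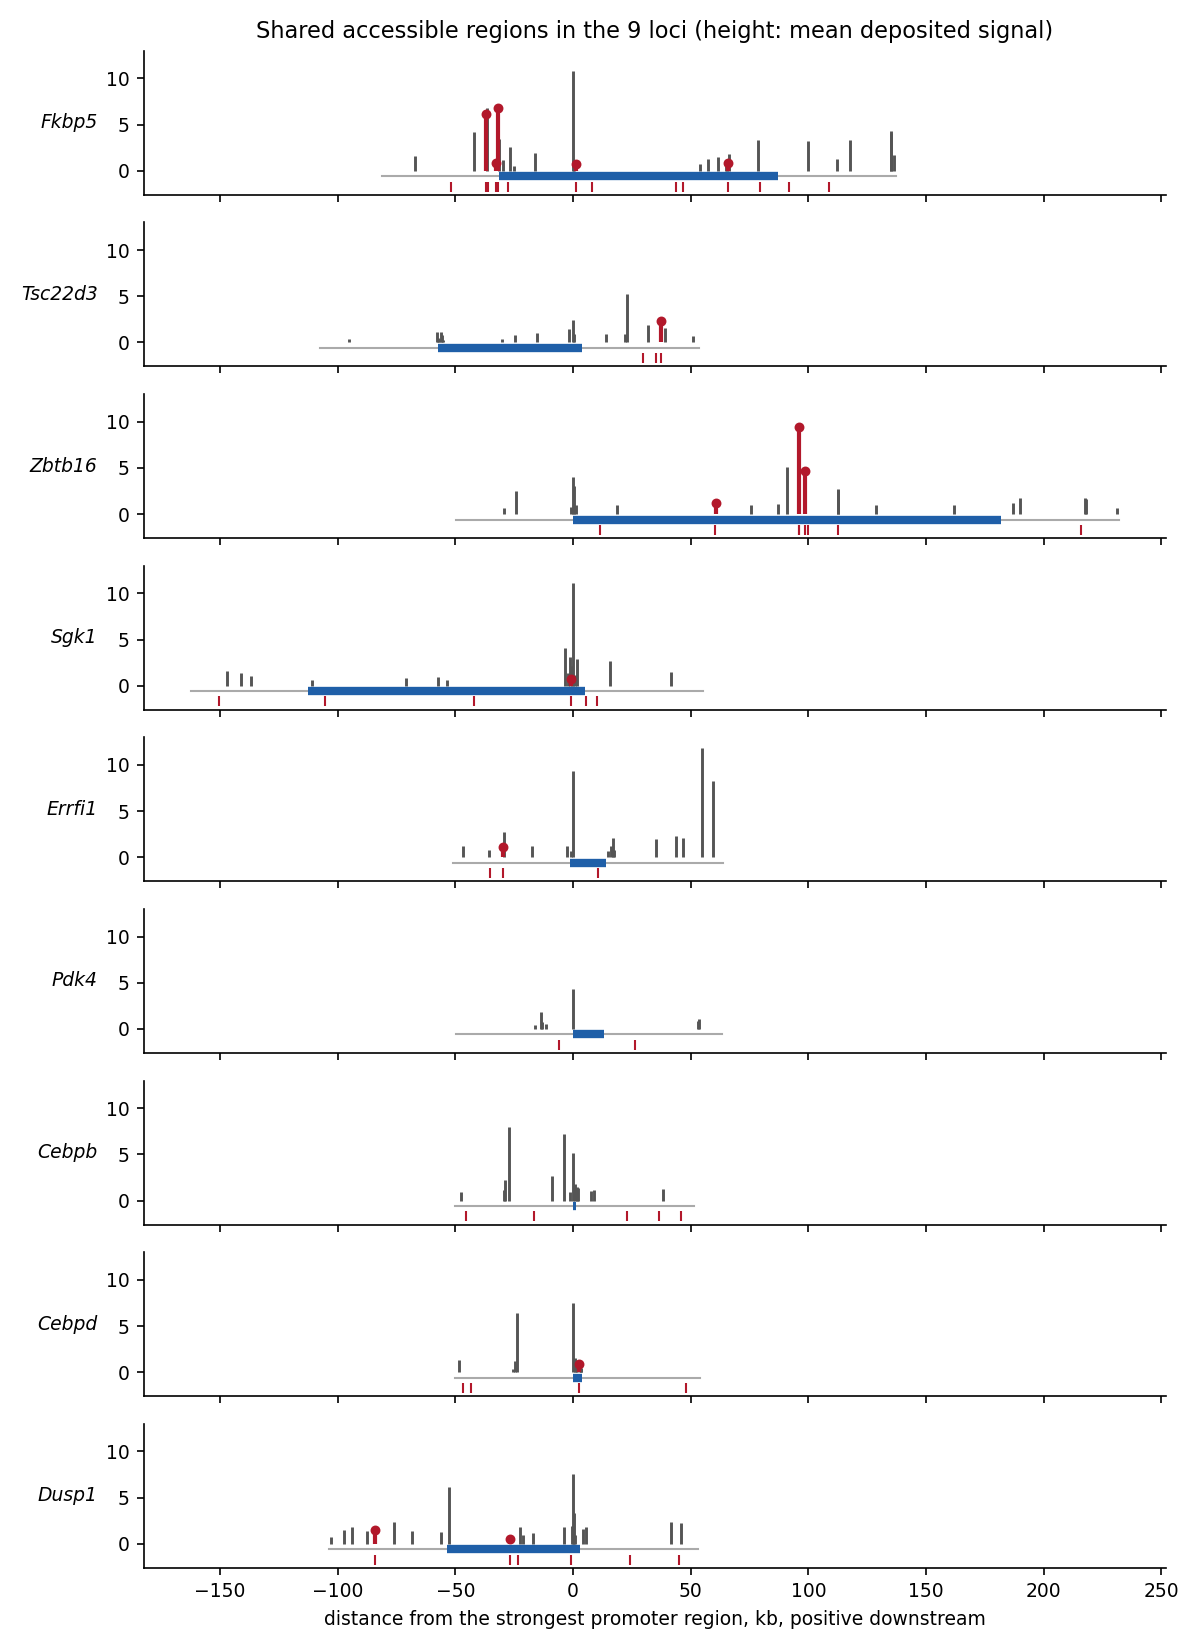
Maps of the 9 loci by distance from the main promoter peak (x axis, kb, along the direction of transcription), with the gene body in blue and the mean deposited signal of each shared region as a bar; bars in red hold the relaxed palindrome and red ticks mark every palindrome of the locus, open or not. The tall red bar in Zbtb16, 96.0 kb downstream of the promoter, is the strongest region outside promoters, and Fkbp5 shows red bars on both sides of its main promoter.

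The relaxed palindrome occurred 51 times in the 9 loci, or 3.47 times per 100 kb, against 1.70 per 100 kb over the genome. By the same search 15 of the 51 (29.4%) lay wholly in shared regions, against 1.14 percent of the 44933 palindromes of the genome. Shared regions cover 0.683% of the genome. The loci hold more open sequence than the genome at large, which raises that share whatever the sequence, so regions were also compared with regions. Of the 159 shared regions 14 (8.81%) held a palindrome, against 0.697 percent of the 73164 shared regions of the genome. In the stricter peak lists it was 9 of 113, for which no share over all regions is given. The full palindrome was in 2 of 159 (1.26%), against 0.0191 percent, or 14 regions in all, which includes these 2.

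Fkbp5 and Zbtb16 gave 8 of the 14 palindrome regions. Without Fkbp5 the count was 9 of 131 shared regions (6.87%). Without both it was 6 of 109 (5.50%), still above the 0.697 percent of all regions. A palindrome region was present in the locus of 7 of the 9 genes, against 4.44 percent of protein-coding genes. Since these loci are rich in open regions, a closer yardstick is the 11502 genes with 7 to 28 shared regions, of which 832 (7.23%) had a palindrome region. It matches the ends of the range only. The median was 17 shared regions in the 9 loci and 7 over all genes, so the share for genes as rich as these is not given. The full palindrome was open in the loci of Fkbp5 and Sgk1, 2 of 9 genes against 0.114 percent of genes. These genes were picked as known receptor targets, and in such genes palindromes have been a subject of study, so the counts describe a set and give no independent evidence.

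Of the 51 palindromes, 3 matched the 12 bases exactly and 2 of these were in shared regions. With 1 mismatch it was 1 of 4, with 2 mismatches 4 of 12, with 3 mismatches 3 of 17 and with 4 mismatches 5 of 15. The share in open chromatin did not fall steadily with mismatches, and the counts are too small to rank. The remaining palindromes lay in a peak of replicate 1 only (2), a peak of replicate 2 only (1) or outside peaks (33). Outside peaks did not always mean closed. The Zbtb16 match at chr9:48723703-48723717 lay in a gap between neighbouring shared regions. The FDR there was 3.9e-12 in replicate 1 and 3.26e-05 in replicate 2. Pdk4 and Cebpb had 2 and 5 palindromes, with 0 in shared regions.

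**Figure D3:**
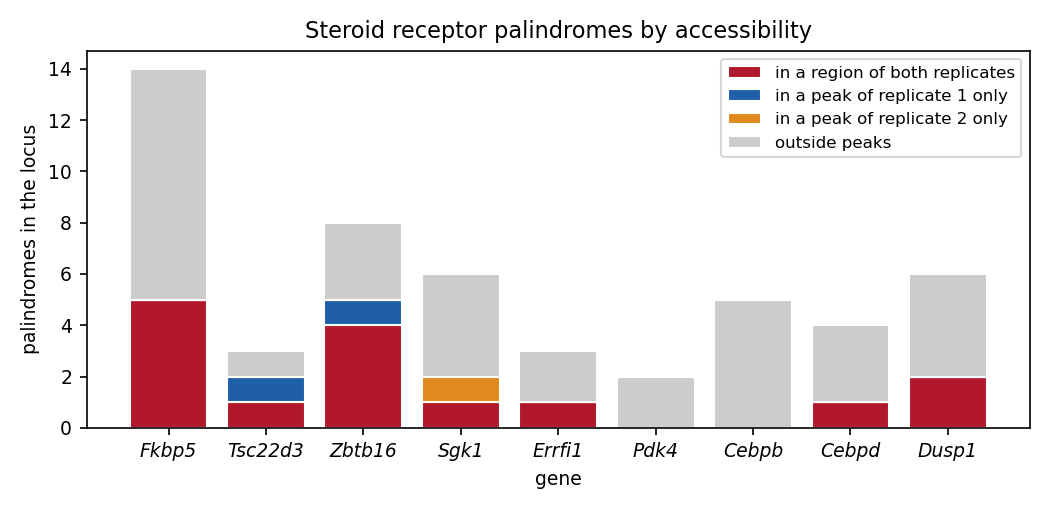
Number of relaxed palindromes in each locus (y axis) for the 9 genes (x axis), split by whether they lay in a region of both replicates, a peak of 1 replicate or outside peaks. Fkbp5 had 14, of which 5 were in shared regions, Zbtb16 had 8 with 4 in shared regions, and Pdk4 and Cebpb had none in a shared region.

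Fkbp5 carried the most palindromes of the 9, 14 in 218 kb, with 5 in shared regions. The exact one lay in an intron at chr17:28420266-28420500, 65.8 kb downstream of the main promoter and 1801 bp upstream of another annotated start. This region was weak, with 0.781 in replicate 1 (150 steps, 95% interval 0.661 to 0.916) and 0.831 in replicate 2 (104 steps, 0.679 to 1.01). The intervals overlap, and the mean of 0.806 ± 0.036 stood at percentile 33.0 of shared regions. At the palindrome the deposited FDR was 0.00235 in replicate 1 and 0.00114 in replicate 2. The reference sequence of the whole region follows, with the palindrome in capitals. The single arm of the palindrome, AGAACA, occurs 4 times in it on either strand, and the palindrome accounts for 2 of them.

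Fkbp5 intron region, chr17:28420266-28420500, plus strand: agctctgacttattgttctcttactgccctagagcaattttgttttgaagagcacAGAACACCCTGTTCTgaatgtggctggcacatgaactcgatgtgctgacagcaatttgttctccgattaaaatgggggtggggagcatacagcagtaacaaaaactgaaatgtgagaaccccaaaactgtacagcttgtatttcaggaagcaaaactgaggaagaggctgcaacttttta

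The second exact palindrome of Fkbp5, at chr17:28442419-28442433, lay 43.8 kb downstream of the main promoter and 704 bp upstream of another annotated start. It was outside the peaks of both libraries, with no stretch at an FDR of 0.05 or lower. Both exact palindromes share every fixed base, and they differed in accessibility within 1 gene. Near the 5′ end of Fkbp5 the strong regions carried looser matches. At chr17:28518041-28518280, about 32.0 kb upstream of the main promoter and at the annotated distal start of the gene, the signal was 7.56 and 6.12 (6.84 ± 1.0, percentile 93.7). Its palindrome differs at 3 of the 12 bases, and the region also holds an AP-1 motif. At chr17:28523061-28523320, the promoter of the noncoding gene Gm20109, it was 7.13 and 5.25 (6.19 ± 1.3, percentile 92.6), with 2 mismatches. The last pair was weak in both replicates, with 0.729 and 0.688 at chr17:28484881-28485140 and 0.849 and 0.951 at chr17:28518821-28519090, each with 4 mismatches. Closeness to the full palindrome did not order the regions by strength. The 5 sequences are set from the strongest region to the weakest to show this.

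Fkbp5 distal start, signal 7.56 and 6.12: tggggctGGAACACAATGTCCCgggcgag
Gm20109 promoter, signal 7.13 and 5.25: gagcgaaAGAACATCCTGTGCCgccgccg
Upstream of Fkbp5, signal 0.849 and 0.951: acccctaGGGACACCCTGTGCCtggagag
Fkbp5 intron, exact, signal 0.781 and 0.831: agagcacAGAACACCCTGTTCTgaatgtg
Fkbp5 intron near the main promoter, signal 0.729 and 0.688: caagcgcTGTACACCCTGTCCCgagcccc

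The exact palindrome of Sgk1 lay at chr10:21993701-21993715, 0.903 kb upstream of the centre of the strongest promoter peak and 182 bp upstream of another annotated start, inside an intron of the long isoform. Its region, chr10:21993481-21993720, had 0.729 in replicate 1 (140 steps, 0.613 to 0.860) and 0.680 in replicate 2 (85 steps, 0.543 to 0.840), at percentile 26.3 of shared regions. It was thus a weak flank of a promoter of 12.3 and 10.0. The palindrome sits 107 bases from the centre of the region, near its downstream edge. At the palindrome the FDR was 0.000139 in replicate 1, and no stretch of replicate 2 was listed. Of the 3 exact palindromes only this one fell in a RefSeq promoter window, where the full palindrome was found in 3 of 32851 windows (0.00913%).

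Sgk1 upstream region, chr10:21993481-21993720, plus strand: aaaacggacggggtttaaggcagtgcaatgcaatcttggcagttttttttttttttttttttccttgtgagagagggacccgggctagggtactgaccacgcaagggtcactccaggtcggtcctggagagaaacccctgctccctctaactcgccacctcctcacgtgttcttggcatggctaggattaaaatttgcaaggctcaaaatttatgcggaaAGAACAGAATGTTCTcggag

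Zbtb16 had palindromes in 2 strong regions and a weaker one. Of 8 palindromes, 4 were in 3 shared regions, all in introns. The strongest region of the locus, 10.7 and 8.25, held a pair of palindromes that overlap each other, with 3 and 4 mismatches. A region at chr9:48737541-48737800, 98.7 kb downstream of the promoter, gave 5.02 and 4.34 (4.68 ± 0.48, percentile 89.0) with 2 mismatches. The closest match, with 1 mismatch, lay at chr9:48775661-48775900, 60.6 kb downstream of the promoter, at 1.46 and 0.959 (1.21 ± 0.35, percentile 53.3). The closest match was thus in the weakest of the 3 regions. The sequence of the strongest region is given with its overlapping pair as 1 run of capitals, and that of the region with the closest match after it.

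Zbtb16 strongest intron region, chr9:48740261-48740420, plus strand: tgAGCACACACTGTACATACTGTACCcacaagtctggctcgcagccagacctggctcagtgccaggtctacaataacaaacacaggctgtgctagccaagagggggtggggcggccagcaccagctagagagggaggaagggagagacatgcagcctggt
Zbtb16 region of the closest match, chr9:48775661-48775900, plus strand: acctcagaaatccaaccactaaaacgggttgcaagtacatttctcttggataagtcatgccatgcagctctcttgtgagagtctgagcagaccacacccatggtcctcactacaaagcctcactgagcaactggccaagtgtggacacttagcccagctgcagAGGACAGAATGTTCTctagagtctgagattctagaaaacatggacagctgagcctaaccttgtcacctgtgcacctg

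The other palindrome regions were single ones. Tsc22d3 had 1 of 3 palindromes in a shared region, at chrX:140505841-140506080, 37.2 kb downstream of the main promoter, with 2.71 and 1.96 (2.33 ± 0.53, percentile 75.7). A closer match of Tsc22d3, with 1 mismatch, lay in a peak of replicate 1 only, with a signal of 0.703. The Dusp1 locus had 2 of 6. The region chr17:26535284-26535420 had 0.463 and 0.600, with its palindrome in an intron of Dusp1 but 26.7 kb upstream of the main promoter. The region chr17:26592501-26592880, in an intron of the neighbour Ergic1, had 1.25 and 1.79. Both palindromes differ from the full palindrome at 2 bases, and the region in Ergic1 also holds an AP-1 motif.

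Errfi1 had 1 of 3, at chr4:150824981-150825300, 29.9 kb upstream, in the promoter of the noncoding gene Gm13049, with 1.33 and 0.879 (1.11 ± 0.32, percentile 49.1). Cebpd had 1 of 4, at chr16:15889581-15889940, in the 3′ untranslated part of the Cebpd exon, where the gene Spidr runs on the other strand, with 0.807 and 0.935 (0.871 ± 0.091, percentile 37.0). None of these 4 loci had a palindrome in its strongest region. Their sequences are set side by side, with the palindrome in capitals.

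Tsc22d3, 4 mismatches, signal 2.71 and 1.96: ggactagGGTACAGAATGTACCcagactt
Tsc22d3, 1 mismatch, replicate 1 only: gctcaggAGAACACTGTGTGCTctggact
Dusp1 intron, 2 mismatches, signal 0.463 and 0.600: ctagcgcTGAACATTCTGTTCCctttccc
Ergic1 intron in the Dusp1 locus, 2 mismatches, signal 1.25 and 1.79: caatgccAGCACATGCTGTCCTggggagt
Errfi1 upstream, 4 mismatches, signal 1.33 and 0.879: ctgggctGGGACAGAGTGTGCCcctggag
Cebpd exon, 3 mismatches, signal 0.807 and 0.935: gggttccTGGACATTTTGTTCCcaacaac

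Over the 14 palindrome regions the median mean signal was 1.16, against 1.39 in the other 145 shared regions of the loci and 1.13 over all shared regions. Of the 14, 7 were above the median of all shared regions. The palindrome regions were thus of ordinary strength, and 4 of the 14 were promoters.

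Other motifs were read in the same 159 regions, on both strands. The AP-1 motif TGANTCA, bound by Fos and Jun dimers that often share regions with the receptor, was in 20 (12.6%), against 12.6 percent of all shared regions. The response element TGACGTCA was in 2 (1.26%), the Errfi1 and Dusp1 promoters, against 1.11 percent. The single arm AGAACA was in 35 (22.0%), against 15.2 percent. The estrogen receptor type palindrome AGGTCANNNTGACCT was in 0 of the 159, against 0.00273 percent or 2 regions in the genome. The full palindrome with up to 2 mismatches of 12 was in 11 (6.92%), against 1.56% of all shared regions. Over the 159 regions, promoters and others together, AP-1 and the response element sat at their background. In promoter windows alone the response element was in 2 of 15 (13.3%), against 1.79% of all such windows. The palindrome stood above its own in the relaxed form, in the full form and with up to 2 mismatches. The difference was smaller for the single arm. The single arm is part of the full palindrome, and the relaxed palindrome contains every full one, so these shares are not independent.

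**Figure D4:**
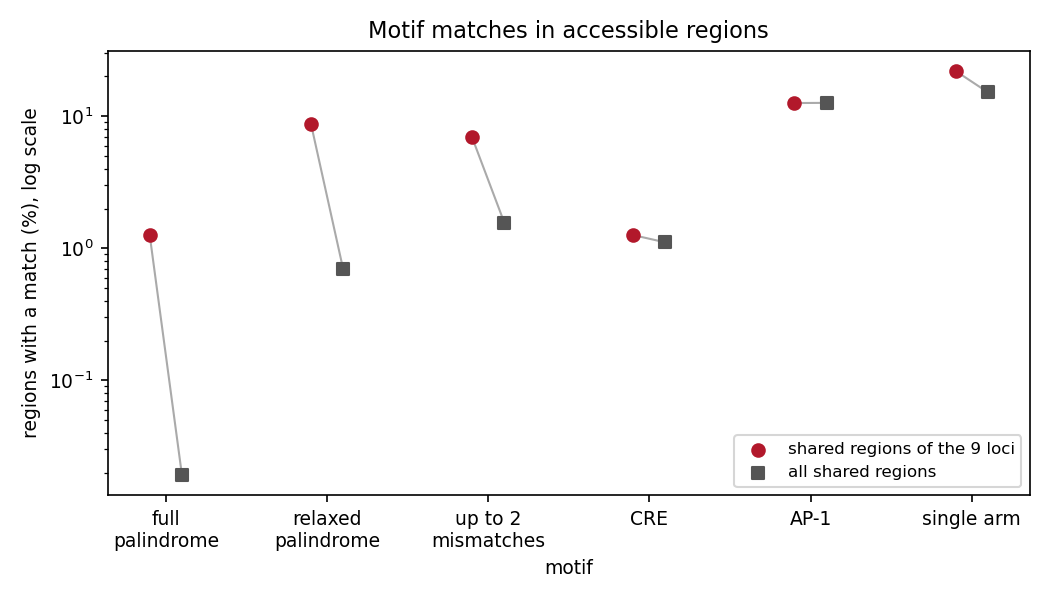
Share of regions with a match (y axis, %, log scale) for 6 motifs (x axis), in the 159 shared regions of the 9 loci (red) and in all 73164 shared regions (grey). The relaxed palindrome stood at 8.81% against 0.697% and the full palindrome at 1.26% against 0.0191%, while AP-1 was at 12.6% in both.

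A footprint is a short stretch inside a peak where fewer cuts were made than around it, as under a bound protein. The 9 loci held 732 footprints in replicate 1 and 437 in replicate 2, and 258 of replicate 1 overlapped one of replicate 2. Such a shared footprint lay in 114 of the 159 shared regions (71.7%), against 71.0 percent of all shared regions. Fkbp5 had 57 shared footprints, Dusp1 44, Zbtb16 37, Errfi1 27, Tsc22d3 and Cebpb 25 each, Sgk1 21, Cebpd 16 and Pdk4 6. In replicate 1 the numbers ran from 20 at Pdk4 to 134 at Zbtb16, and in replicate 2 from 19 at Pdk4 to 93 at Fkbp5.

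Footprints clipped some palindromes and covered none. Of the 15 palindromes in shared regions, 6 overlapped a footprint of either replicate over the 13 bases searched, against 33.9 percent of the 513 in the genome, a share near that background. In replicate 1 it was 5, in replicate 2 it was 3 and in both 2. Every overlap was partial, from 1 to 6 of the 13 bases, and over the genome a footprint covered the whole palindrome in 4 of 513 cases. Neither exact palindrome in open chromatin, of Fkbp5 or Sgk1, touched a footprint, nor did the overlapping pair in the strongest Zbtb16 region, although that region held 3 footprints in replicate 1 and 4 in replicate 2. The Fkbp5 and Sgk1 regions held between 85 and 150 steps in a library, and whether that depth could show a footprint was not tested.

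The overlaps in both replicates were at Fkbp5 and Tsc22d3. At chr17:28484938-28484953 in replicate 1 and chr17:28484941-28484953 in replicate 2, the Fkbp5 footprints ended at the same base, 1 base into the 13. At Tsc22d3 the replicates touched opposite ends, chrX:140505946-140505967 in replicate 1 and chrX:140505976-140505982 in replicate 2, so they did not mark the same bases. At the match of Zbtb16 with 1 mismatch a footprint of replicate 2, chr9:48775817-48775829, covered 5 of the 13 bases. The Dusp1 intron had the widest overlap, 6 bases of the footprint chr17:26535336-26535356 of replicate 1.

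Of the 14 palindrome regions 9 held a shared footprint somewhere in them, as did 105 of the 145 other regions.

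Stretches at an FDR of 0.05 or lower numbered 439 in replicate 1 and 329 in replicate 2 over the 9 loci. They covered 82782 and 55010 bases, and 52467 bases (3.57% of the loci) were covered in both. The covered share in both was highest at Errfi1 (5.44%), then Cebpb (4.93%), Fkbp5 (4.40%), Dusp1 (4.35%) and Cebpd (4.24%). It was 3.58% at Tsc22d3, 2.51% at Pdk4, 2.47% at Zbtb16 and 2.20% at Sgk1. Errfi1 was thus first by this measure as by region density.

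Of 20 genes of the receptor, its chaperones, its coregulators and the enzymes that convert the hormone, 20 had an open promoter, against 66.1 percent of all coding genes, and their median signal was 8.46 against 4.61 over all open promoters. Nr3c1, the glucocorticoid receptor, gave 9.51 and 6.42 (7.96 ± 2.2), and Nr3c2, the mineralocorticoid receptor, 11.3 and 9.34 (10.3 ± 1.4). Both replicates placed Nr3c2 above Nr3c1, although the ranges of the 2 receptors over the replicates overlapped. The highest of the list were Hspa8 at 16.3 ± 1.4, a constitutive Hsp70 chaperone, Ncoa2 at 15.2 ± 3.9, a coactivator, and Smarca4 at 13.8 ± 0.062, the motor of the BAF remodelling complex. The cochaperone Bag1 (12.8 ± 1.5), the Hsp90 gene Hsp90ab1 (12.7 ± 2.6) and the cochaperone Stip1 (12.4 ± 2.6) came next.

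The enzymes that convert the hormone were lower. Hsd11b1, whose product makes active hormone from its inert form, gave 3.30 and 4.19 (3.74 ± 0.63). Hsd11b2, whose product inactivates it and so guards the mineralocorticoid receptor in some epithelia, gave 0.963 and 0.863 (0.913 ± 0.071), at percentile 9.35 of open promoters.

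Among 29 other genes reported as glucocorticoid-induced, 22 had an open promoter, against 66.1 percent of all coding genes, with a median signal of 6.68 against 4.61. Ddit4, an inhibitor of mTOR signalling (15.1 ± 2.5), Gadd45b, a stress response gene (13.3 ± 2.3), Arrdc2, an arrestin domain gene (12.5 ± 4.3), Per1, a clock gene (12.1 ± 2.9), Nfkbia, the inhibitor of NF-kB (11.2 ± 0.35), and Foxo3, a forkhead factor (10.5 ± 1.9), were highest. Lcn2, Tat and G6pc had no promoter peak in either replicate, and the latter pair are liver enzymes. Fam107a, Scnn1a and Trim63 had one in replicate 1 only and Pck1 in replicate 2 only.

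The same palindrome search was made in this list. In the loci of the 29 other induced genes 10 of 392 shared regions (2.55%) held the relaxed palindrome, against 0.697 percent of all shared regions. They lay in the loci of 7 genes, Per1, Klf9, Klf15, Ddit4, Cdkn1a, Gadd45b and Arrdc2, against 4.44 percent of protein-coding genes. The full palindrome was open at 1 of the 29, Ddit4, against 0.114 percent. Both gene shares are over all protein-coding genes, which had a median of 7 shared regions per locus. No share is given for genes as rich in open regions as this list. The median number of shared regions per locus was 14 in this list, against 17 in the 9 loci, and the difference between the lists was not tested.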

How the data were processed

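DNase-seq peaks, footprints and rates of cutting were taken from 2 libraries of 1 group. The deposited peak lists, a looser (main) and a stricter one per library, give the authors' signal per peak. The deposited FDR track gives a q-value of the authors per stretch of positions, 0.05 or lower. Per the sample notes the authors made all lists library by library. The aligner, callers and normalization: not given in the sources used here. Footprints were used as positions only, since their deposited value is constant.

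Python 3.11.15 with numpy 2.4.6 and pandas 2.3.3 joined peaks that overlap by at least 1 bp. Genes and all their start sites came from GENCODE M21, and sequence from GRCm38.p6, the reference of mm10. Coordinates are 1-based. Poisson 95% intervals assume that 1 signal step is 1 cut. The total depth of each library was not used here, since the lists hold only called positions. Scripts were tested on simulated data. Described by rule were all 9 genes, every palindrome region, the strongest region outside promoters per locus and, per list, up to 6 open genes of highest signal and 6 without a peak; Nr3c1, Nr3c2, Hsd11b1 and Hsd11b2 were named in addition, after their values were seen. The members and lists were chosen with earlier results of these data known. The labels do not say whether the 2 libraries came from separate litters. Alternatives tried were the stricter list, equal numbers of peaks, 50% reciprocal overlap, flanks of 10 kb and 100 kb, promoter windows of 500 and 2500 bp, other motif forms, a central window of 200 bp, FDR limits of 0.01 and 0.001, scaling, and each replicate alone. The palindrome count in the loci of the receptor and chaperone list is not reported here.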

Additional observations from a re-analysis of the deposited data

How the results depend on the processing

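Counts depended on the amount of sequence read and on the number of libraries required. With a flank of 10 kb, shared regions fell from 159 to 99 and shared footprints from 258 to 154. A single replicate gave 170 to 270 regions, 437 to 732 footprints and 55010 to 82782 bases at an FDR of 0.05, by construction, since no second library had to match. Palindromes touched by a footprint numbered 6 with either replicate and 3 to 5 with a single one, since the footprints of the other were left out. A limit of 0.001 left 32145 of the 52467 bases. Palindrome regions numbered 14 in the main reading and 9 in the stricter peak list, 2 for the full palindrome and 29 for the core ACANNNTGT. No share over all shared regions is given for the stricter list or the core, so those counts cannot be read against a background. Palindromes touched by a footprint numbered 0 for the full form and 2 where both replicates had to touch. All 9 promoters were open under each of the alternatives tried for them. With 2 replicates, leaving one out cannot move a promoter's mean by as much as its SD, so those values say nothing of stability. The median log2 ratio at promoters was -0.36 scaled, 0.03 on deposited signals, -0.26 with promoter scaling and -0.39 in the stricter list. The regions of the exact palindromes rest on 85 to 150 steps in a library, and the effect of depth was not tested. No paired analysis was possible because both libraries belong to 1 group.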
